A study of Mus musculus with 5 samples.

Results

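Of the 8038 regions that CUT&Tag against Pou4f1 marked in the embryonic mouse retina, 733 (9.12%) lay between genes and far from the starts of coding genes. A region was counted when its midpoint fell outside the body of every GENCODE M21 gene on mm10, more than 1 kb from every transcript start and more than 50 kb from the start of the nearest protein-coding gene. These 733 made up 59.9% of the 1223 intergenic regions in the table. They are called distal regions below, a name for their position that says nothing of what they do. No measured signal was used to choose them.

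Each library came from 4 pooled retinas of wild-type E16.5 embryos and was made with rabbit antibodies to Pou4f1 (2 libraries) or H3K9AC (1 library, left out here), or with rabbit IgG (2 libraries). The table holds a signal value per region for the Pou4f1 replicates 1 and 2, for a library named IgG and for a library named negative control. The last was taken as the second IgG library, since rabbit IgG is the negative control that the methods name. A pooled retina holds progenitors and several kinds of neuron, so the signal belongs to no single cell type, and the files hold no expression values against which the tissue could be checked.

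Pou4f1, also called Brn3a, is a POU-domain transcription factor that binds AT-rich DNA and is best known in sensory neurons and in retinal ganglion cells, the neurons that send visual information from the eye to the brain. In CUT&Tag, an antibody brings a transposase to the chromatin where its target sits, and the transposase tags the DNA nearby. Binding far from genes is of interest because enhancers, short elements that raise the transcription of a gene, can act over long distances along the chromosome. Neither the gene an element acts on nor its activity is measured by CUT&Tag. The flanking genes given here are therefore the coding genes to either side, not targets.

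Because Pou4f1 recognizes DNA through its POU domain, the distal regions were first searched for a POU consensus, written in its 2 searched forms as ATNAATAATT and ATNAATTATT on either strand, within the central 200 bp. A match was found in 85 of the 733 regions. Of these, 5 with high mean Pou4f1 signal are printed here on the plus strand of mm10, with the sequence of GRCm38.p6 from RefSeq and the matching bases in capitals. Overlapping matches are joined in 1 capital run.
Snx10 to Skap2, chr6:51641081-51641280: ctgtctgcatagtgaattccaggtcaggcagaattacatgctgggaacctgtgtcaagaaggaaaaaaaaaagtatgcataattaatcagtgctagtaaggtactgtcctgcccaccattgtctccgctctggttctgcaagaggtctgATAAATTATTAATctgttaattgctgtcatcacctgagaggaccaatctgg
Kcng1 to Nfatc2, chr2:168394829-168395028: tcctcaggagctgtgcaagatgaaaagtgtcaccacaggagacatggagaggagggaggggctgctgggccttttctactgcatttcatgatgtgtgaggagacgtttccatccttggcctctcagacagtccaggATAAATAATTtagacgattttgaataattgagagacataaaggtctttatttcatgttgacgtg
Nox3 to Arid1b, chr17:4673247-4673446: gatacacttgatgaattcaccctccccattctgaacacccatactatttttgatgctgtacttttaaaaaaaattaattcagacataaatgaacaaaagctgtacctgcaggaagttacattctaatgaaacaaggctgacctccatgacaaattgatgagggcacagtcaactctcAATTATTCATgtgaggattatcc
Wdr20rt to Rpl10l, chr12:66055362-66055561: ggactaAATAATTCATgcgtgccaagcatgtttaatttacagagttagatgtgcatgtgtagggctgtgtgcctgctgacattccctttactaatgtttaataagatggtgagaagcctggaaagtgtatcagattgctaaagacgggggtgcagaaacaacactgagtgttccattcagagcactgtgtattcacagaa
Eipr1 to Myt1l, chr12:29239725-29239924: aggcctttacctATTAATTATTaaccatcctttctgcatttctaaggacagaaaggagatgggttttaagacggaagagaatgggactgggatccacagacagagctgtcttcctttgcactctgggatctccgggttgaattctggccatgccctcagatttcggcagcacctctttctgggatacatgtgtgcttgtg

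These 5 windows held different forms of the consensus, and the Snx10 to Skap2 window held overlapping matches on opposite strands. The region around that window, chr6:51640789-51641571, reached 791 in Pou4f1 replicate 1 and 1292 in replicate 2, with both IgG libraries listed at 0. It lay 50.5 kb from the near edge of Snx10, which encodes a sorting nexin of the endosome, and 117 kb from its start. On the other side, Skap2, which encodes an adaptor of Src-family kinases, lay 216 kb away. The region between Kcng1, a potassium channel subunit gene, and Nfatc2, a gene for a calcium-regulated transcription factor, reached 658 and 1024, with 6.28 in the IgG library and 0 in the negative control. Signals in the region between Nox3 and Arid1b, the latter a subunit gene of the BAF chromatin remodelling complex, were 640 and 880, with both IgG libraries at 0. The region between Wdr20rt and Rpl10l had 474 and 847 and that between Eipr1 and Myt1l had 420 and 715, again with both IgG libraries at 0. In all 5 regions both Pou4f1 libraries lay far above both IgG libraries, and replicate 2 was the higher of the Pou4f1 libraries. Limma called all 5 higher in Pou4f1, with Benjamini-Hochberg adjusted p from 0.00222 to 0.0150. The 5 were picked for high Pou4f1 signal, so this order and these calls follow in part from the choice.

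The POU consensus was concentrated at the centres of the distal regions. It occurred in 11.6% of their central windows (exact 95% interval 9.37% to 14.1%), beside 22 of 1466 equally long windows placed 2 kb upstream and downstream (1.50%, 0.943% to 2.26%). Among all 8028 regions on chromosomes the share was 4.38%, and it was 8.98% in the 490 intergenic regions within 50 kb of a coding start, 11.9% in 1495 intron regions and 0.680% in 5147 regions within 1 kb of a transcript start. The distal regions therefore had a share close to that of introns, whose interval of 10.3% to 13.7% overlaps theirs, and about the share of the nearer intergenic regions, whose interval was 6.60% to 11.9%. These intervals cover counting error only, and no test was made over regions.

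The 85 windows held 117 sites, 27 windows held 2 or more, and the most in any window was 4. Of the 8 words that the consensus allows, ATAAATAATT (22 sites), ATTAATAATT (21) and ATGAATTATT (20) were the most frequent, and ATCAATAATT (6) was the least. Counted by 100-bp steps from the midpoint, there were 61 sites in the step before it and 60 in the step after it, and no more than 19 in any step over 200 bp away. A match anywhere in the region was found in 189 regions (25.8%).

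**Figure D1:**
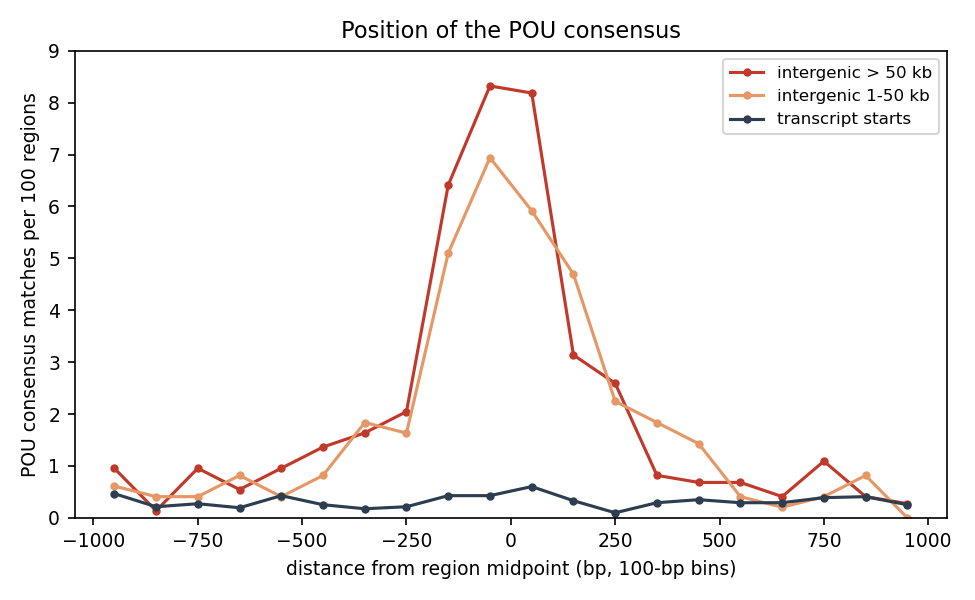
POU consensus matches per 100 regions (y axis) against the distance of the match from the region midpoint in 100-bp bins (x axis), for distal regions, intergenic regions within 50 kb of a coding start, and regions at transcript starts. The distal regions peak at 8.32 matches per 100 regions in the bin beside the midpoint, where regions at transcript starts have 0.427.

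Every 8-letter word was also counted, after the data were seen, in the 667 distal regions with little repeat sequence. The count took the same central and flanking windows as the POU search, so it describes the same sequences and is no separate support. The paper also reports that the most enriched motif of its bound regions matched known Pou4f1 sites, although only a minority of all its bound regions held it. It found a closely similar motif in a larger share of the bound regions that lay in open chromatin of ganglion cells. The word with the largest excess at the centre was ATTATTTA with its reverse complement, present in 60 central windows (9.0%) and in 2.10% of the flanking windows. ATTATTCA was present in 51 (7.65%, flanks 1.12%) and ATTATTAA in 50 (7.50%, flanks 1.20%), and all 3 words are parts of the POU consensus.

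Other motifs were less concentrated at the centres of the distal regions or were rare. TAATTA, the core bound by many homeodomain proteins, was found in 9.82% of central windows and 5.73% of flanks, and it can overlap the POU consensus. The E-box CAGNTG, bound by bHLH factors, was found in 43.0% and 36.7%. CCCNNGGG, the inverted repeat bound by Ebf factors, was found in 12.4% of central windows but in 7.95% once regions rich in repeats were left out, beside 3.90% of the flanks of the regions that remained. The Sox motif ACAANGG (8.32% and 8.53%) and the Onecut motif ATCGAT (0.546% and 0.819%) were no more frequent at the centre than in the flanks. The GC box GGGCGG was found in 7.37% of distal regions, 2.05% of their flanks and 53.8% of regions at transcript starts. The CTCF core motif was found in 1.36%, 0.614% and 3.83% in the same order. Once regions rich in repeats were left out, the GC box was in 5.55% of central windows (flanks 2.25%) and the CTCF motif in 0.600% (flanks 0.450%). The Nrf1 motif was found in 0 of 733 distal regions and 1.01% of regions at transcript starts.

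The signal of the distal regions was compared with the rest of the table next. Their median was 197 in Pou4f1 replicate 1 (quartiles 140 and 278) and 256 in replicate 2 (140 and 414). In the library named IgG the median was 0.187, in the negative control it was 0, and each IgG library was listed at 0 in about as many regions as not (366 and 397 of 733). At transcript starts the medians were 183 and 130 for Pou4f1 and 5.51 and 10.2 for IgG. In replicate 1 the distal regions were thus close to the starts, with a ratio of the medians of 1.08, while in replicate 2 the ratio was 1.96.

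The replicates ordered the distal regions alike but differed in level. Pearson's coefficient between the Pou4f1 replicates over the 733 regions was 0.827 and Spearman's was 0.819, as a description over regions of the same 2 libraries. Replicate 2 was higher in 499 regions (68.1%), with a median ratio of replicate 2 to 1 of 1.25, whereas at transcript starts it was higher in 16.6% and the median ratio was 0.701. Introns (1.18) and the nearer intergenic regions (1.06) lay between. How much distal regions exceed starts in Pou4f1 signal thus depended on the replicate, and 2 libraries do not settle it. The cause of the difference was not tested.

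**Figure D2:**
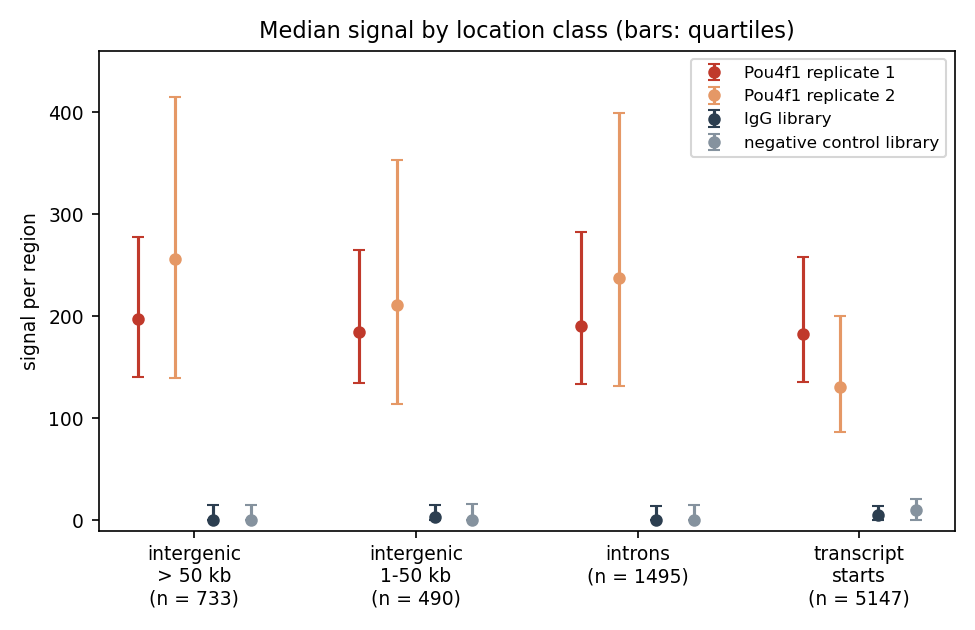
Median signal per region (y axis) in each of the 4 libraries for distal regions, intergenic regions within 50 kb, intron regions and regions at transcript starts (x axis), with bars from the lower to the upper quartile over regions. In Pou4f1 replicate 2 the median is 256 in distal regions, 211 in the nearer intergenic regions, 238 in introns and 130 at transcript starts, while in replicate 1 the medians lie between 183 and 197.

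Against IgG, limma on log2(signal + 1) called 527 distal regions higher in Pou4f1 (71.9%), beside 64.8% of all regions tested, and 8 lower (1.09%), beside 0.224% of all. The authors chose the regions for their Pou4f1 signal, so an excess over IgG is partly built in and the shares are to be read against each other. Without Pou4f1 replicate 1 the median log2 difference of distal regions was 6.40, and without replicate 2 it was 5.88. Without the IgG library it was 6.94, and without the negative control it was 6.34. Such fits leave 1 library in a group, so their spread comes from the other group alone and their calls were not used. With the IgG libraries taken as 4 times shallower the split was 277 higher and 42 lower. With column totals as library sizes, a setting that lowered the median log2 difference of all regions from 5.22 to 3.18 and that of distal regions from 6.12 to 4.16, it was 241 and 63. With 2 libraries a group an exact permutation test cannot go below p = 0.333, and while the study's methods call the replicates independent, neither they nor the labels say whether each came from its own pool of embryos, so p-values measure the spread between these libraries.

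The values themselves separated more regions than the test did. In 650 distal regions (88.7%) the lower Pou4f1 value exceeded the higher IgG value, beside 96.5% of all regions. The opposite order, with the IgG values above those of Pou4f1, was found in 57 distal regions (7.78%), beside 1.46% of all, and the other 26 overlapped. Distal regions thus made up 48.7% of all regions of the table with the opposite order while making up 9.12% of the table. Both IgG libraries were listed at 0 in 244 distal regions, of which 243 were called higher. The calls were 156 of the 275 with 1 IgG library at 0 and 128 of the 214 with neither at 0. Over all regions on chromosomes they were 1828 of 1834, 1386 of 3514 and 1988 of 2680 in the same order. IgG values of 0 and 0 have no spread, so a call there was nearly fixed and says little about distal regions.

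The regions with the opposite order were mostly repeats. In 66 distal regions at least 50% of the bases were soft-masked in the genome sequence, the mark for interspersed and simple repeats. These 66 were 42.9% of the 154 such regions on chromosomes. Median Pou4f1 signals were 60.0 and 46.9, below the 107 and 137 of IgG, and 52 of them had the opposite order. All 8 regions called lower were among them. Their median GC content was 62.9%, beside 46.5% in the other distal regions, and their median length was 1238 bp, beside 898 bp. This split was made after the values were seen.

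The repeat regions resembled each other in sequence. A 31-base word taken along a region occurred at a median of 2259 places in the genome in these 66 regions (65 with a word to count), and 61 of them had a median of 100 or more. In the other 667 distal regions the median was 1 place, and 646 had a median of exactly 1. A stretch of 31 bases was shared by 36 of the 66 regions and occurs 5217 times in the genome. It is shown here in capitals, with its surroundings in the region between 4931400O07Rik and Gm6760 on the X chromosome, because it is what most of these regions have in common.
4931400O07Rik to Gm6760, chrX:62931405-62931555: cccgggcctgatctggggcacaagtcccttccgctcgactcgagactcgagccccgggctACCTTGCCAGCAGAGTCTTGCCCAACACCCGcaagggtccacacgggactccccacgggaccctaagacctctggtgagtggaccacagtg

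Pou4f1 signals there were 66.1 and 93.8, below the 325 of the IgG library and the 143 of the negative control. The POU consensus was found in 0 of the 66 repeat regions, with an exact 95% interval that reaches up to 5.44%. Reads from so many like copies cannot be placed at a single position with certainty. How the authors placed such reads was not given in the sources used here, and the part of repeat sequence in the opposite order was not tested.

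Leaving these 66 out, 648 of 667 distal regions (97.2%) had Pou4f1 above IgG in every pair of libraries. That share is close to the 96.5% of all regions, so this order does not set them apart. Of the 667, 525 were called higher (78.7%), beside 64.8% of all regions, and 0 lower, beside 0.224%. Median signals were 207 and 282 for Pou4f1 and 0 for each IgG library. A fit on the regions of the table with under 50% repeat called 529 of the 667 higher, beside 5222 of all 7874 regions in that fit. The POU consensus was found in 85 of the 667 (12.7%, 10.3% to 15.5%). The 5 with the opposite order held no soft-masked base, but their 31-base words occurred at a median of 6 to 13 places each. They included the region between Anapc10 and Hhip, with 43.0 and 19.6 in Pou4f1 against 115 and 282 in IgG, and the region between Atxn7l3b and Trhde, with 27.8 and 0 against 69.0 and 105.

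**Figure D3:**
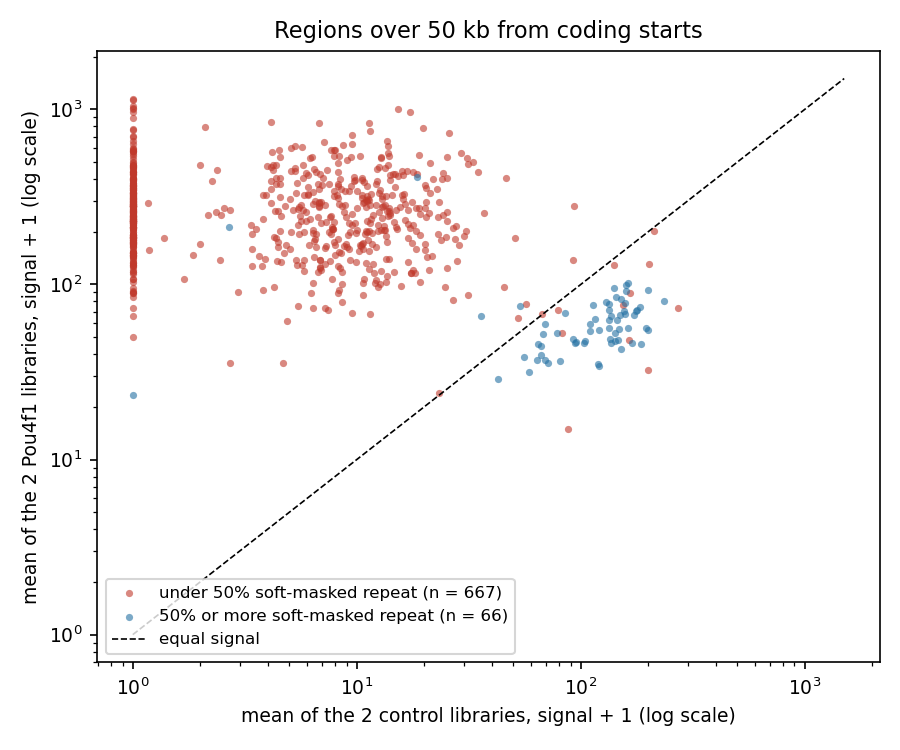
Each distal region by the mean of the IgG libraries (x axis, signal + 1, log scale) and the mean of the Pou4f1 libraries (y axis, signal + 1, log scale), with the 667 regions under 50% repeat in red and the 66 others in blue, and a dashed line of equal signal. Nearly all blue points lie below the line, at IgG signals near 100, while the red points lie above it apart from a few.

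Distal regions with the POU consensus had a higher median signal than those without. The 85 with a match had median Pou4f1 signals of 243 and 318, beside 191 and 243 in the 648 without, with overlapping quartiles (186 to 323 and 134 to 271 in replicate 1). The 648 include all 66 repeat regions, and the 582 under 50% repeat without a match had medians of 204 and 273. IgG was the lower in every pair of libraries in 85 of 85, close to the 563 of these 582 (96.7%). With the 667 regions under 50% repeat put in 5 parts by mean Pou4f1 signal, the match was found in 6 of 134 (4.48%) in the lowest part, below a mean signal of 151, and in 12.8% to 17.3% of the other 4 parts. The share did not keep rising above the lowest part, and the highest part had 14.9%.

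The distance from the nearest coding start had a median of 156 kb (quartiles 87.5 and 322 kb) and ran from 50.022 to 2139 kb. The edge of a flanking coding gene could lie much closer, down to 0.346 kb. The regions just inside the limit lay 50.022 kb from Cep85l, 50.134 kb from Shisal1 and 50.236 kb from Ddx3x, with Pou4f1 signals of 279 and 439, 115 and 97.2, and 408 and 403. Those just outside lay 49.706 kb from Pwwp2b, 49.757 kb from Mboat2 and 49.87 kb from Fggy, with 174 and 334, 223 and 273, and 371 and 605. The 3 on each side covered much the same range of signal. Transcript starts of any kind, coding or noncoding, were nearer, with a median distance of 36.5 kb and 108 distal regions within 10 kb of such a start. With every transcript start of coding genes counted in place of the gene start, 684 of the 733 regions stayed beyond 50 kb. In the RefSeq annotation of GRCm38.p6, 99 distal regions (13.5%) lay inside a gene model that GENCODE M21 did not place there. Regions named in these results are among the 99, such as every region between Arap3 and Pcdh1 and the farthest from a coding start. So are the regions of the windows printed between Kcng1 and Nfatc2 and between Eipr1 and Myt1l.

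Median signal was similar in all groups up to 1000 kb from a coding start and was highest in the 21 regions beyond. Regions at 50 to 100 kb (226) had Pou4f1 medians of 205 and 247, those at 100 to 250 kb (269) had 195 and 263, those at 250 to 500 kb (136) had 185 and 239, those at 500 to 1000 kb (81) had 192 and 251, and those beyond 1000 kb had 223 and 328. The share of repeat regions was 6.19% and 5.20% in the 2 nearest groups and 15.4%, 17.3% and 14.3% in the others. The POU consensus was found in 10.6%, 13.4%, 7.35%, 13.6% and 19.0% of the 5 groups in the same order. The farthest group held 4 matches in 21 regions, so its interval of 5.45% to 41.9% spans the values of all the others.

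The region farthest from a coding start lay 2139 kb from Pik3c3, a lipid kinase gene of autophagy, in the long interval between it and Celf4, an RNA-binding protein gene. Its signals were 253 and 479 with both IgG libraries at 0, and it held the POU consensus. The next lay 1865 kb from Tenm3, a teneurin gene of synaptic adhesion, with 313 and 530, and 1831 kb from Aga in the same interval, with 360 and 594, again with both IgG libraries at 0. Limma called these 3 higher, with adjusted p from 0.00222 to 0.00231. The region 1757 kb from Pik3c3 also held the POU consensus and had 266 and 727 against 0 and 0. The fifth farthest, between Celf4 and Pik3c3 on chromosome 18, was a repeat region with 102 and 54.0 in Pou4f1 against 112 and 145.

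The distal region of highest mean signal was chr1:92285852-92286632, between the histone deacetylase gene Hdac4 (90.5 kb) and Ndufa10 (153 kb), a subunit gene of respiratory complex I. Its Pou4f1 signals were 893 and 1408, and it was listed at 0 for IgG. The second, chr4:72765923-72767364, lay between the corepressor gene Tle1 and Aldoart1 and had 951 and 1298, also against 0 and 0. Of the 10 highest, 7 had both IgG libraries at 0, and the highest IgG value in any of them was 32.5. That value came from the region between the mechanosensitive channel gene Piezo2 and Txnl1, with 812 and 1120 in Pou4f1, which limma did not call (adjusted p just over the threshold of 0.05). The other 9 were called higher, which follows in part from their being picked for high Pou4f1 signal. Replicate 2 was the higher replicate in all 10.

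Transcription factors of ganglion cells flanked a share of the distal regions. A list of 56 such genes makes up 0.257% of coding genes, and 43 distal regions (5.87%) lay beside 22 of them, compared with 22 of the 490 nearer intergenic regions (4.49%). For this and the other lists, a region counted when either flanking gene or the gene of the nearest coding start was listed. Each region thus has more than 1 gene that can count, and its share is not on one scale with the share of genes. The nearer intergenic regions were counted in the same way. Limma called 31 of the 43 higher and 1 lower, beside 71.9% higher among all distal regions. In 41 of them Pou4f1 exceeded IgG in every pair of libraries. The other 2 were repeat regions, beside Irx1 (54.8 and 48.3 against 141 and 141) and beside Klf4 (55.4 and 69.3 against 140 and 91.0). Genes of the list with more than 2 distal regions were Irx2 and Irx4 (the same 9), Ebf1 and Sox11 (4 each), and Klf7, Myt1l and Irx6 (3 each). The length of the intervals beside these genes was not taken into account, and no test was made.

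**Figure D4:**
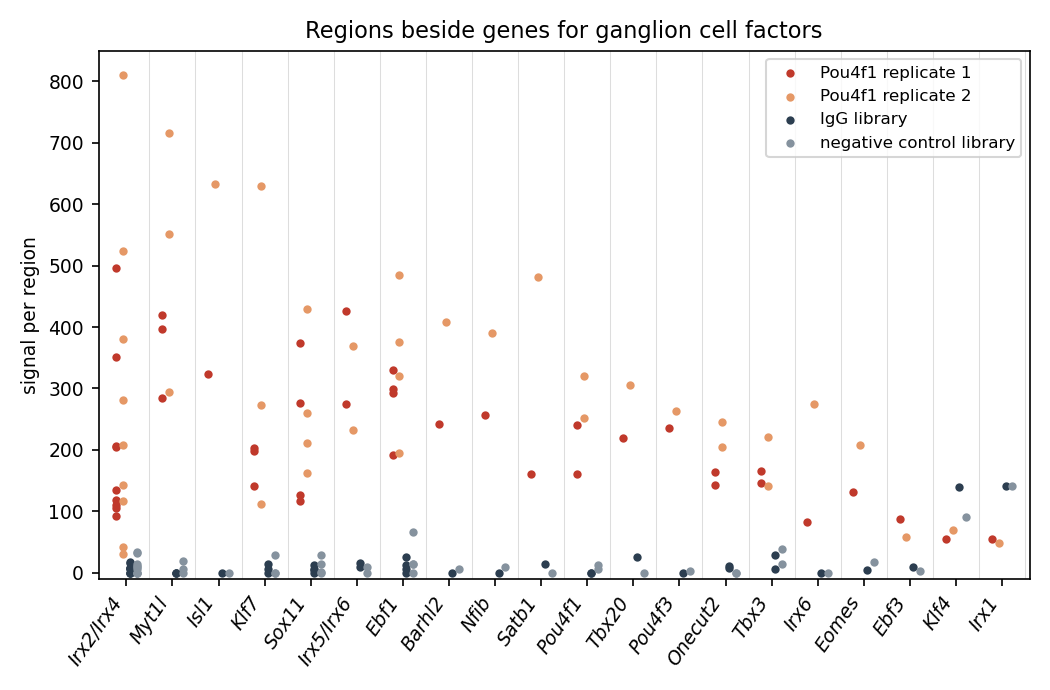
Signal per region (y axis) in each of the 4 libraries for distal regions beside genes of the ganglion cell factor list, grouped by flanking gene (x axis) and ordered by the highest mean Pou4f1 signal. Pou4f1 points lie above the IgG points except in the repeat regions beside Klf4 and Irx1 at the right.

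Among these genes, Irx2 and Irx4, which encode Iroquois homeodomain factors, flanked the interval with the most distal regions in the table. The interval spans 626 kb of chromosome 13, and its 9 distal regions spread over 383 kb of it. The highest, chr13:73008621-73010246, lay 251 kb from the start of Irx4 and had Pou4f1 signals of 496 and 811 against IgG signals of 7.27 and 5.03, with a log2 difference of 6.49 ± 0.50 (SE, limma, adjusted p = 0.00352). The region nearest to Irx4, 57.8 kb from it, had 351 and 524 against 0 and 33.7 and was not called (adjusted p = 0.0681). That at 407 kb from Irx4 had 205 and 380 with both IgG libraries at 0 and was called. At the Irx2 end, the outermost region had 105 in replicate 1 but 29.7 in replicate 2, against 6.43 and 14.5, and was not called (adjusted p = 0.0833). In all 9 the Pou4f1 signals were above those of IgG, and 5 were called higher, beside 71.9% of all distal regions. With signals scaled to column totals, the log2 differences of 3 of the 9 turned negative. They were -1.50 in the outermost region at the Irx2 end, and -0.57 and -0.046 in the called regions at 301 kb and 83.8 kb from Irx4, and those at 251 kb (2.65) and 263 kb (3.60) were no longer called.

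No central window of these 9 held the POU consensus, but 3 of the regions held it elsewhere, at 4 sites. They are shown because the 3 regions include the highest of the interval and the 1 with no IgG signal. Each is given as 50 bases on the strand of its match, with the match in capitals.
Region 407 kb from Irx4, minus strand, chr13:72853668-72853717: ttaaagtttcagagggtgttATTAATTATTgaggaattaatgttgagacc
Region 263 kb from Irx4, minus strand, chr13:72996617-72996666: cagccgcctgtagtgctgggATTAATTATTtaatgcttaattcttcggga
Highest region, plus strand, chr13:73009075-73009124: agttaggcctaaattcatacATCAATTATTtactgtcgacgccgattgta
Highest region, minus strand, chr13:73009207-73009256: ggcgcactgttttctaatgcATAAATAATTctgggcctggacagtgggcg

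The first pair of these sites shared the word ATTAATTATT. The region at the second, 263 kb from Irx4, had signals of 109 and 208 against 8.06 and 0 (adjusted p = 0.0393).

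**Figure D5:**
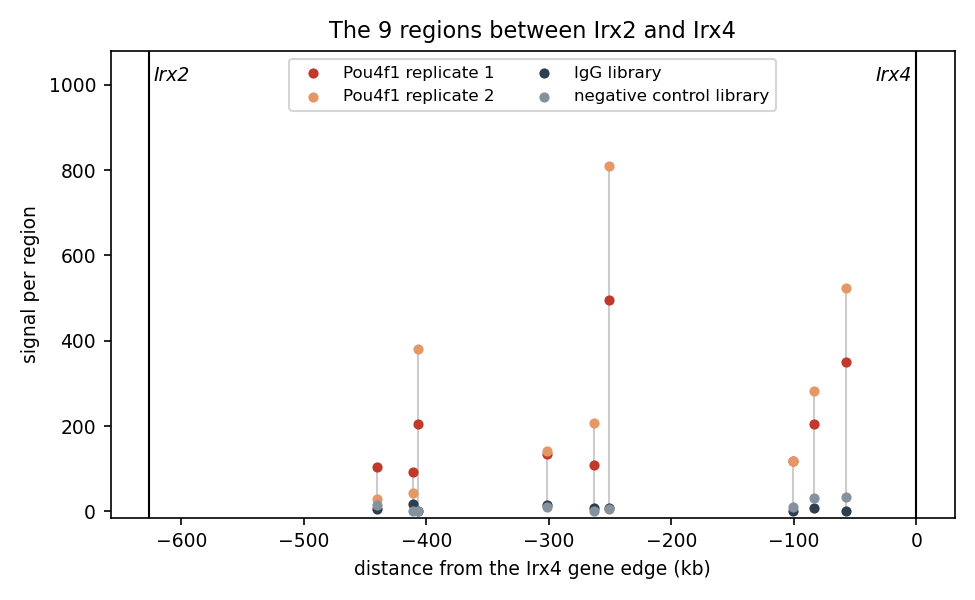
Signal per region (y axis) in each of the 4 libraries for the 9 distal regions between Irx2 and Irx4, placed by their distance from the edge of Irx4 in kb (x axis), with vertical lines at the edges of the genes. The highest points, 496 and 811, are at 251 kb, and the IgG points stay at or below 33.7.

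The second Iroquois cluster had fewer. Between Irx5 and Irx6 on chromosome 8 lay 2 distal regions, with 275 and 232 against 8.26 and 8.70 (adjusted p = 0.00396), and with 426 and 369 against 14.8 and 0 (adjusted p = 0.0403). On the other side of Irx6, towards Mmp2, a region had 82.7 and 275 with both IgG libraries at 0 (adjusted p = 0.00740).

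Myt1l, a zinc-finger gene of neuronal identity, had 3 distal regions within 52.2 kb, upstream of its start. The highest, whose POU window is printed above, had 420 and 715 in Pou4f1 and 0 in both IgG libraries. The others had 397 and 552 against 0 and 5.94, and 284 and 294 against 0 and 19.4, and the last was not called (adjusted p = 0.0545). Isl1, a LIM-homeodomain gene expressed in ganglion cells, had a distal region 457 kb from its start with 323 and 632 and both IgG libraries at 0.

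Ebf1, a gene for a helix-loop-helix factor of neuronal and B cell differentiation, had 4 distal regions over 371 kb on the side of Clint1. They had 192 to 330 in replicate 1 and 195 to 486 in replicate 2. Of the 4, 3 were called higher, beside 71.9% of all distal regions. Near Sox11, an HMG-box gene of immature neurons, 3 regions lay on the side of Cmpk2, with the highest at 374 and 429 against 12.9 and 28.7 (adjusted p = 0.0121), and 1 lay on the other side. The 3 beside Klf7, a Krüppel-like factor gene linked to axon growth, included a region that differed much between replicates, with 203 in replicate 1 and 630 in replicate 2 against 0 and 28.7 (adjusted p = 0.0711).

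The genes of the Pou4 family themselves were looked at because they encode the factor under study and its close relatives, although the rule for named regions did not list them. Pou4f1 had 2 distal regions, 253 and 271 kb from the gene on the side of Ednrb. The nearer had 240 and 320 against 0 and 11.6 (adjusted p = 0.0389) and the other had 160 and 251 against 0 and 5.13 (adjusted p = 0.0224). Pou4f3 had 1, at 57.1 kb, with 235 and 263 against 0 and 2.32 (adjusted p = 0.00786). None of the 3 held the POU consensus in its central window.

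Factors of other retinal cells flanked distal regions as well. Progenitor factors, a list of 23 genes (0.106% of coding genes), flanked 8 distal regions (1.09%), compared with 6 of the nearer intergenic regions (1.22%). The 8 lay beside Casz1, Meis1, Nr2f1, Nr2f2, Six3 and Sox9, and 7 of them were called higher, beside 71.9% of all distal regions. Meis1, a homeodomain gene of retinal progenitors, had a region with the POU consensus with 323 and 426 against 0 and 11.4 (adjusted p = 0.0345). Factors of amacrine cells, horizontal cells and photoreceptors, a list of 24 genes (0.110% of coding genes), flanked 7 distal regions (0.955%) and 0 of the 490 nearer ones. The 7 lay beside Nr4a2, Pax6, Prox1 and Thrb, and 6 of them were called higher. Developmental factors at large, a list that overlaps the others, comprise 208 genes (0.956% of coding genes), and 33 of these flanked 63 distal regions (8.59%), compared with 30 of the nearer intergenic regions (6.12%). Of the 63, limma called 47 higher and 2 lower, beside 71.9% and 1.09% of all distal regions.

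Genes that act at the cell surface of neurons were also neighbours of distal regions. Axon guidance genes, a list of 74 (0.340% of coding genes), flanked 28 distal regions (3.82%), compared with 1.84% of the nearer intergenic regions. Of the 28, 19 were called higher and 0 lower. Among them the region between the ephrin receptor gene Epha6 and Nsun3 had 661 and 1008 against 0 and 20.7, that between the semaphorin co-receptor gene Nrp1 and Itgb1 had 649 and 928 against 0 and 2.22, and that between the ephrin receptor gene Epha5 and Cenpc1 had 348 and 920 with both IgG libraries at 0. These 3 were picked after their values were seen. Cell adhesion genes, such as cadherins, protocadherins, contactins and teneurins, are a list of 163 (0.749% of coding genes). They flanked 55 distal regions (7.50%), compared with 1.84% of the nearer intergenic regions, with 39 called higher and 1 lower. Interval length was not taken into account for any list of genes, and no test was made. The intervals differ much, with 4668 kb between Tenm3 and Aga and 187 kb between Arap3 and Pcdh1, and a long interval leaves more room beyond 50 kb. The shares called, 19 of 28 and 39 of 55, are near the 71.9% of all distal regions. Repeat regions made up 3 of the 28 and 9 of the 55.

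Voltage-gated channel genes flanked 7 distal regions (0.955%), compared with 11 of the nearer intergenic regions (2.24%), and 4 of the 7 were called higher, beside 71.9% of all distal regions. Transmitter receptor genes flanked 5 distal regions (0.682%), compared with 0.612% of the nearer ones, and the 5 were called higher. Those 5 lay beside the glutamate receptor genes Gria2, Grik2, Grik3, Grin2a and Grm8. The highest, between Pot1a and Grm8, had 379 and 844 against 0 and 9.40. Olfactory and vomeronasal receptor genes, which make up 6.80% of coding genes, flanked 3 distal regions (0.409%) and 6 of the nearer intergenic regions (1.22%), and the 3 were called higher.

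The distal regions were spread over 503 intervals between coding genes. Of these, 358 held 1 distal region, 94 held 2, and 51 held 3 or more and together 187 regions. After the Irx2 to Irx4 interval, those between Mki67 and Mgmt, between Snx10 and Skap2 and between Celf4 and Pik3c3 held 6 each. In the first, beside the proliferation marker gene Mki67, all 6 regions were called higher, with 97.3 to 334 in replicate 1 and 94.8 to 417 in replicate 2, and the IgG libraries did not exceed 12.4. The lowest of the 6, with 97.3 and 94.8, turned to a log2 difference of -0.96 when signals were scaled to column totals, and the highest, with 334 and 417, was then at 1.67 and no longer called. The 6 between Snx10 and Skap2 lay within 176 kb, 4 were called, and 2 held the POU consensus. The nearest of them to Snx10 lay 2.06 kb from the edge of the gene and 68.8 kb from its start. The 6 between Celf4 and Pik3c3 lay over 2747 kb, and in 5 of them the signals of Pou4f1 exceeded those of IgG. Among all distal regions that order was found in 88.7%, and 71.9% were called higher, beside 64.8% of all regions. Counts out of 6 do not set these intervals apart from those shares.

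The intervals between Dmrta2 and Elavl4, between Arap3 and Pcdh1 and between Uaca and Tle3 held 5 each. The first, which lies beside the gene of the neuronal RNA-binding protein Elavl4, held its 5 within 60.2 kb, and all 5 were called, with 175 to 460 in replicate 1 and 182 to 500 in replicate 2. The 5 between Arap3 and the protocadherin gene Pcdh1 lay within 77.5 kb, with the highest at 430 and 647 against 13.9 and 0 (adjusted p = 0.0354). The 5 between Uaca and the corepressor gene Tle3 were spread over 341 kb, and 3 were called. Among all distal regions 71.9% were called higher, and counts out of 5 do not set these intervals apart from that share.

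Few of the distal regions met a VISTA element, an enhancer tested in transgenic embryos, in the annotation. RefSeq lists 1015 enhancers, counted whether or not they carry a VISTA name. Those with such a name were overlapped by 2 distal regions. The region chr13:97892148-97892828, between Gm10260 and Arhgef28, overlapped an element active in midbrain and forebrain. Its signals were 186 and 205, against 17.9 and 0 for IgG (adjusted p = 0.0608). The region chr9:24889083-24889996, beside Tbx20, overlapped an element active in the heart. There the signals were 219 and 306, against 25.9 and 0 (adjusted p = 0.0703). Both had the Pou4f1 libraries above the IgG libraries, but neither was called.

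Primer pairs that the study lists for ChIP-qPCR fell in 2 distal regions. The paper reports that ChIP-qPCR of a selected subset of bound elements bore out its CUT&Tag data, and those ChIP-qPCR values were not examined here. For Sorcs3, the region that the paper discusses in its text is a different one, at the promoter and first exon. The amplicon assigned to Satb1, a chromatin organizer gene, lay at chr17:51631887-51632024 in a region 201 kb from the start of Satb1, with 160 in replicate 1 and 481 in replicate 2 against 13.8 and 0 (adjusted p = 0.0492). The amplicon assigned to Sorcs3, a gene for a sorting receptor of neurons, lay at chr19:48857271-48857435, in a region 51.9 kb beyond the end of the gene and 651 kb from its start. That region had 265 and 251 with both IgG libraries at 0 (adjusted p = 0.00222).

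The 5 lowest log2 differences belonged to regions that were also repeated in the genome. They lay between Atxn7l3b and Trhde, between Arhgap42 and Cntn5, between Anapc10 and Hhip, between Flrt2 and Galc and between Gm597 and Phf3. The last was called lower, with 54.3 and 34.6 in Pou4f1 against 188 and 180 in IgG (log2 difference -2.06 ± 0.45, SE, limma, adjusted p = 0.0336). That between Arhgap42 and Cntn5 is 66 bp long and had 68.8 and 0 against 93.6 and 47.1, so its order was not the same in every pair of libraries. The shortest distal region of all, between Rad51ap2 and Fam49a, is 1 bp long in the table and had 45.0 in Pou4f1 replicate 1 and 0 in the other libraries.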

How the data were processed

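CUT&Tag libraries were made from 4 pooled E16.5 wild-type retinas each, with anti-Pou4f1 (n = 2), IgG (n = 2) and anti-H3K9AC (n = 1, not analysed here). The authors aligned the reads to mm10 with Bowtie2 2.4.5, called regions with SEACR in relaxed mode and deposited a table of signal for 8038 regions in 4 libraries. The scaling of the signal, read depth, duplicate removal and pooling before calling were not given in the sources used here. Signal times region length was a whole multiple of a library step (45.0, 61.2, 76.2 and 88.9, tolerance 0.05) for 100.0% of values, but the values are not counts.

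Pou4f1 was compared with IgG by limma 3.58.1 (R 4.3.3) on log2(signal + 1) over all 8038 regions without covariates, with Benjamini-Hochberg adjustment and a threshold of 0.05, after tests on simulated data. Genes came from GENCODE M21, sequence and soft-masking from RefSeq GRCm38.p6. Shares have exact (Clopper-Pearson) 95% intervals for counting error only. Named regions were the 10 highest and 5 lowest, 12 beside ganglion cell or progenitor factors, the 5 farthest, those of the 5 fullest intervals, the 6 strongest with the POU consensus outside chromosome 18 and those with ChIP-qPCR amplicons. Some regions that this rule lists are not reported here or plotted by gene. Regions, gene lists and motifs were chosen with earlier results of these data known. Sequence searches and figures were made in Python 3.11.15 (matplotlib 3.10.9, numba 0.67.0, scipy 1.17.1, pandas 2.3.3, numpy 2.4.6).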

Additional observations from a re-analysis of the deposited data

How the results depend on the processing

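Of the distal regions, 527 were called higher and 8 lower. With the IgG libraries taken as 2 and 4 times shallower these counts were 339 and 277 higher and 20 and 42 lower, and with column totals as library sizes they were 241 and 63. Leaving out each library in turn gave 277 to 656 higher and 3 to 26 lower. The lower calls were 3 at a pseudocount of 0.1, 18 at 10, 16 with a trend of spread on level and 0 in a fit on regions under 50% repeat, where those regions were absent. A threshold of 2-fold and a filter on short or low regions left both counts as they were. The settings with every library that were not named for higher calls kept them within 1.5 times.

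Taking the starts of every gene type in place of coding genes left 298 distal regions. The share with the POU consensus was 5.59% in the central 100 bp, 19.4% in 400 bp and 25.8% in the whole region, and that of flanking windows was 0.819% at 10 kb. Scaled to column totals, log2 differences became -1.50, -0.57 and -0.046 in the regions between Irx2 and Irx4 that start at 72819891, 72958986 and 73175846, and -0.96 in that between Mki67 and Mgmt at 136209189. That between Arhgap42 and Cntn5 ranged from -6.08 to 0.049 as each library was left out in turn, with 0.049 without Pou4f1 replicate 2. No paired analysis was possible because the IgG columns carry no replicate number. A signal of 0 in an IgG library does not show absence, since the depth is unknown.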
